A study of Arabidopsis thaliana with 36 samples.

Results

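The comparison described here sets Fcs, the F1 hybrid of Arabidopsis thaliana with Col-0 as mother and Sei-0 as father, against its paternal accession Sei-0, in leaves at 1 day post infiltration (dpi) with the bacterium Pseudomonas syringae pv. tomato (Pst) DC3000. Its members are the genes with an expression level of at least 1 FPKM (fragments per kilobase of exon, scaled to the number of mapped fragments) in Fcs or in Sei-0, which were 17867 of the 33557 genes listed. The measure is the ratio of the FPKM in Fcs to the FPKM in Sei-0. A gene is called higher at a ratio of at least 2 and lower at a ratio of 1/2 or less.

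The study asked how gene expression in hybrids and their parents differs during infection. It profiled Fcs, the reciprocal hybrid Fsc (Sei-0 as mother), Sei-0 and Col-0 at 1, 2 and 3 dpi by mRNA sequencing, with 3 libraries for each of the 12 groups, and each library was made from pooled leaves. Fcs and Sei-0 were treated alike: 4-week-old plants grown on plates with 1% sucrose at 22 °C, by the sample labels, with 8 h of light and 16 h of dark, were infiltrated with 100000 c.f.u. per ml. All 12 groups carry the infection, so no value here is from uninfected leaves.

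For each group the tables give 1 FPKM value pooled over the 3 libraries. These pooled values hold no spread between replicates, and the authors' own test columns were not used, so no SD, standard error or test is given and no difference below is set against replicate error. In pooled leaves, fewer cells of a type and less RNA per cell cannot be told apart. The reads were aligned to the Col-0 genome, so a Sei-0 allele that has diverged from Col-0 and a Sei-0 allele with little transcript cannot be told apart either, and this bears most on the genes near 0 in Sei-0.

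Plants meet a bacterium that lives in the leaf first with receptors at the cell surface, then with intracellular receptors of the NB-LRR class, and both lead to synthesis of salicylic acid (SA) through the isochorismate pathway. SA acts through NPR1 and its relatives to induce pathogenesis-related genes, while jasmonate signalling, which Pst DC3000 engages with its toxin coronatine, opposes SA. The circadian clock, in which the morning factors CCA1 and LHY repress genes of the evening, times photosynthesis, starch turnover and part of the defence response.

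The FPKM values of Fcs and Sei-0 at 1 dpi sum to 1063230 and 1080680, and the 20 most abundant genes held 23.3% and 22.8% of these sums. The leaf label is borne out by its markers: RBCS1A and LHCB1.3, of the photosynthetic mesophyll, had 4916 and 6862 FPKM in Fcs and 9976 and 9343 FPKM in Sei-0. None of the markers of flower and pollen, seed or dividing cells reached 1 FPKM in either group, and of the 5 root markers only SCR did, with 9.46 FPKM in Fcs and 12.3 FPKM in Sei-0. Of other leaf cell types, only 1 of 3 trichome markers was measured. It was TRY, which was lower, with 2.34 FPKM in Fcs and 12.5 FPKM in Sei-0. Of 6 guard-cell markers 3 were measured, and 1 of these, KAT1, was higher, with 24.2 FPKM in Fcs and 11.4 FPKM in Sei-0. None of 3 phloem markers passed 2-fold. Of the 8 control genes 7 lay within 2-fold, such as ACT2 with 506 FPKM in Fcs and 560 FPKM in Sei-0. The polyubiquitin gene UBQ10 was the exception, with 1375 FPKM in Fcs and 468 FPKM in Sei-0.

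Fcs differed from Sei-0 by at least 2-fold in 16.6% of measured genes. Of the 17867 genes, 1566 (8.76%) were higher in Fcs, 1402 (7.85%) were lower and 14899 lay between. The middle of the distribution was near equality, with a median log2 ratio of 0.018 and a range between the 5th and 95th percentiles of -1.23 to 1.41. At larger folds the balance was tilted upward: 622 genes were at least 4-fold higher and 270 at least 4-fold lower, and at 8-fold these were 356 and 80. This balance includes genes under 1 FPKM in 1 of the groups: with at least 1 FPKM required in both, 1012 genes were at least 2-fold higher and 1087 at least 2-fold lower. Just past and just short of the margin for higher genes were AAC2 (97.0 FPKM in Fcs, 48.5 in Sei-0) and DL1E (119 in Fcs, 59.7 in Sei-0). For lower genes they were PME61 (7.32 in Fcs, 14.7 in Sei-0) and TAS3 (5.56 in Fcs, 11.1 in Sei-0). IQD6 (0.696 in Fcs, 1.00034 in Sei-0) just entered the measured set and RABH1e (0.601 in Fcs, 0.999938 in Sei-0) just missed it.

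**Figure D1:**
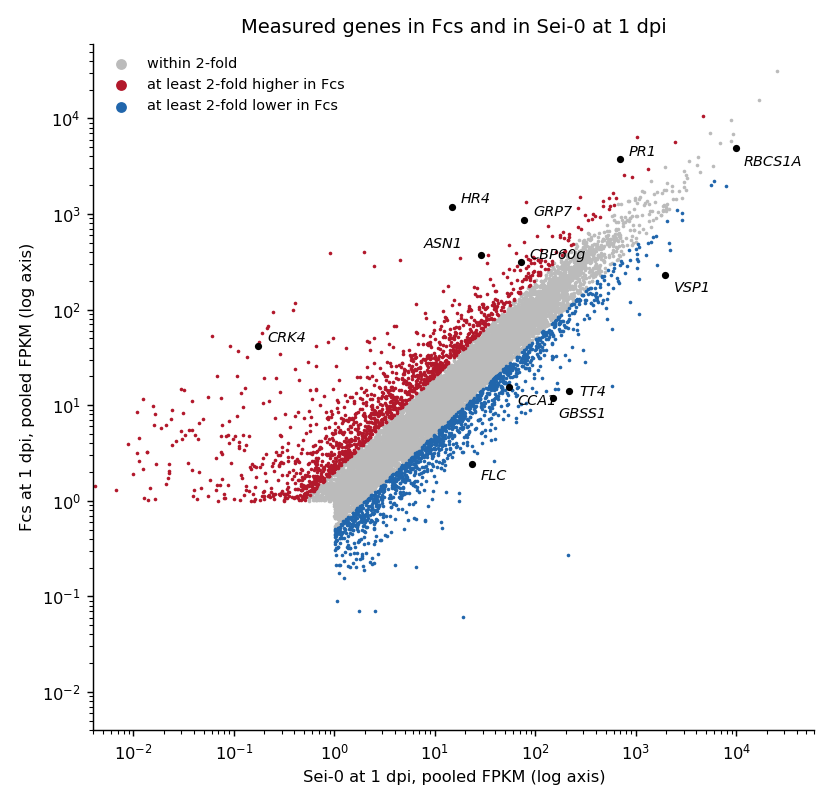
Each point is a measured gene, placed by its pooled FPKM in Sei-0 (x) and in Fcs (y) at 1 dpi on log axes; red points are at least 2-fold higher in Fcs, blue points at least 2-fold lower, and black points are named genes. Genes listed at 0 in a group are not drawn. HR4 stands far above the diagonal with 1191 FPKM in Fcs against 14.7 FPKM in Sei-0, and TT4 far below it with 14.2 FPKM in Fcs against 215 FPKM in Sei-0.

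Among annotated genes with at least 10 FPKM in the higher group and at least 1 in the lower, the highest ratio belonged to HR4, a homologue of the RPW8 mildew resistance proteins, which was 81.1-fold higher in Fcs. ARD3, an acireductone dioxygenase of methionine salvage, had 333 FPKM in Fcs and 4.48 FPKM in Sei-0. Next came ESM1, which steers glucosinolate breakdown and is described below, NAC003, RLP34 and AGP5, an arabinogalactan protein with 344 FPKM in Fcs and 17.7 FPKM in Sei-0. The other 6 of the 12 highest were DIN10, NIT2, PRODH, SEN1, ASN1 and FRA8. NIT2, a nitrilase, had 67.6 FPKM in Fcs and 4.15 FPKM in Sei-0.

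The lowest ratio belonged to TT4, the chalcone synthase that opens flavonoid synthesis, which was 15.2-fold lower in Fcs. THI2.1, an antimicrobial thionin induced by jasmonate, had 2.64 FPKM in Fcs and 38.5 FPKM in Sei-0. GBSS1, the starch synthase that makes amylose, had 11.9 FPKM in Fcs and 150 FPKM in Sei-0, and JAL23, a jacalin-related lectin, had 90.9 FPKM in Fcs and 1068 FPKM in Sei-0. FSD1, an iron superoxide dismutase of the chloroplast, had 28.3 FPKM in Fcs and 316 FPKM in Sei-0. The remaining 7 of the 12 lowest were ATCSLA15, ELIP1, FLC, MSRB5, MSRB6, MIPS2 and CSLA01, at 8.9-fold to 10.4-fold lower in Fcs.

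The genes of SA synthesis and its regulators leaned towards higher values in Fcs, with 3 of 12 measured members called higher, 1 lower, and a median log2 ratio of 0.72. ICS1, the isochorismate synthase that makes the SA precursor, had 288 FPKM in Fcs and 165 FPKM in Sei-0, and EDS5, which exports isochorismate from the chloroplast, had 438 FPKM in Fcs and 257 FPKM in Sei-0. Both were 1.7-fold higher and so fell short of the 2-fold margin. PBS3, which joins glutamate to isochorismate, passed it with 737 FPKM in Fcs and 265 FPKM in Sei-0. Of the pair of related activators of ICS1, CBP60g had 314 FPKM in Fcs and 71.5 FPKM in Sei-0, a 4.39-fold difference, and SARD1 had 353 FPKM in Fcs and 183 FPKM in Sei-0. PAD4, the lipase-like regulator of SA signalling, had 540 FPKM in Fcs and 210 FPKM in Sei-0, whereas its partner EDS1 had 97.8 FPKM in Fcs and 85.0 FPKM in Sei-0. ICS2, the weakly expressed copy of ICS1, went the other way with 1.78 FPKM in Fcs and 3.74 FPKM in Sei-0, a call that is lost when 1 is added to each FPKM (log2 ratio -0.77). ICS1 and ICS2 are near copies, and how reads that fit both were assigned is not given in the sources used here.

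N-hydroxypipecolic acid, the mobile signal of systemic resistance, is made by ALD1 and FMO1, and both were called higher. ALD1 had 121 FPKM in Fcs and 51.6 FPKM in Sei-0, and FMO1 had 322 FPKM in Fcs and 147 FPKM in Sei-0. UGT76B1, which glucosylates this signal, was just short of the margin with 382 FPKM in Fcs and 197 FPKM in Sei-0. Of 5 measured genes of SA turnover none was higher and DLO1, an SA hydroxylase also known as S3H, was lower, with 27.2 FPKM in Fcs and 81.7 FPKM in Sei-0.

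None of the 12 SA receptors and partners passed 2-fold in either direction, and their median log2 ratio was 0.38. NPR1, the central SA receptor and coactivator, had 48.0 FPKM in Fcs and 46.6 FPKM in Sei-0. NIMIN1, a binding partner of NPR1 that SA induces, had 280 FPKM in Fcs and 175 FPKM in Sei-0.

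SA response genes were higher in 7 of 21 cases and lower in none, with a median log2 ratio of 0.69. PR1, the usual marker of SA signalling, had 3725 FPKM in Fcs and 694 FPKM in Sei-0, a 5.36-fold difference. PR5, a thaumatin-like protein, had 260 FPKM in Fcs and 60.9 FPKM in Sei-0, and AIG1, named for its induction by avirulence factors, had 1494 FPKM in Fcs and 277 FPKM in Sei-0. The largest ratio of the list was that of DOX1, a fatty acid dioxygenase, with 14.3 FPKM in Fcs and 0.654 FPKM in Sei-0. GRXS13, a glutaredoxin, and AZI1, which primes tissue for SA synthesis, were 3.55-fold and 2.9-fold higher. NUDT6, a hydrolase of nucleotide sugars and cofactors, was the remaining gene, at the margin with 1228 FPKM in Fcs and 608 FPKM in Sei-0. Not all markers followed: BGL2, which encodes PR2, had 268 FPKM in Fcs and 277 FPKM in Sei-0, WRKY70 had 1435 FPKM in Fcs and 1073 FPKM in Sei-0, and ACD6, a regulator of SA and cell death, had 359 FPKM in Fcs and 490 FPKM in Sei-0. The SA lists hold genes that the study had chosen on these samples, so their counts are not independent evidence of a direction.

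Receptors of microbial patterns were mostly alike in both groups. FRK1, a kinase gene induced by flagellin, had 46.2 FPKM in Fcs and 20.4 FPKM in Sei-0, and FLS2, the flagellin receptor, had 3.31 FPKM in Fcs and 1.38 FPKM in Sei-0; the FLS2 call is lost when 1 is added to each FPKM (log2 ratio 0.86). RLP23, the receptor of a peptide of NLP proteins, was lower, with 15.1 FPKM in Fcs and 34.0 FPKM in Sei-0. The other 11 of 14, among them the co-receptor BAK1 and the chitin receptor CERK1, lay within 2-fold.

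Downstream of these receptors 4 of 25 genes were higher and 1 lower, with a median log2 ratio of 0.5. WRKY29 had 3.47 FPKM in Fcs and 0.697 FPKM in Sei-0, NHL10, a marker of the flagellin response, had 68.2 FPKM in Fcs and 19.2 FPKM in Sei-0, and PROPEP2, the precursor of a danger peptide, had 12.8 FPKM in Fcs and 3.76 FPKM in Sei-0. CYP81F2, an enzyme of indole glucosinolate modification, was 2.33-fold higher. PROPEP1, a relative of PROPEP2, was called lower with 2.8 FPKM in Fcs and 5.74 FPKM in Sei-0, and loses this call when 1 is added to each FPKM. The MAP kinases MPK3, MPK4 and MPK6 and the oxidases RBOHD and RBOHF all lay within 2-fold.

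Cysteine-rich receptor-like kinases, many of which SA induces, together with wall-associated kinases, had 7 of 20 measured members higher and none lower. These 20 are a chosen list: of all 34 measured genes whose symbol begins with CRK, 9 were higher and 3 lower, with a median log2 ratio of 0.23. CRK4 was the extreme, with 42.0 FPKM in Fcs and 0.174 FPKM in Sei-0; it had 67.3 FPKM in Col-0. CRK13 had 244 FPKM in Fcs and 84.1 FPKM in Sei-0, and WAK3 had 89.2 FPKM in Fcs and 31.1 FPKM in Sei-0. CRK36, CRK7, CRK45 and CRK39 were 2.61-, 2.42-, 2.11- and 2.07-fold higher.

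Immune receptors of the NB-LRR class and their helpers were higher in 6 of 17 cases and lower in none. Some of the largest ratios came from receptors that were near 0 in Sei-0. The neighbouring pair CHS3 and CSA1 had 6.14 and 5.71 FPKM in Fcs, 0.0209 and 0.0186 FPKM in Sei-0, and 6.12 and 8.19 FPKM in Col-0. RPP4, a receptor of downy mildew effectors, had 84.1 FPKM in Fcs and 12.8 FPKM in Sei-0. The helper ADR1 had 10.5 FPKM in Fcs and 1.56 FPKM in Sei-0, and RPP13, another receptor of downy mildew effectors, had 19.3 FPKM in Fcs and 8.36 FPKM in Sei-0. The relatives of ADR1, ADR1-L1 and ADR1-L2, were within 2-fold. RPM1, RPS2 and RPS4 differed by less than 1.5-fold.

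Of 8 measured regulators of cell death 3 were higher, none was lower and 5 lay between, with a median log2 ratio of 0.59. BON1, a membrane copine, had 120 FPKM in Fcs and 55.2 FPKM in Sei-0, and its partners BAP1 and BAP2 had 352 and 365 FPKM in Fcs and 95.2 and 80.4 FPKM in Sei-0.

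Jasmonate genes lay the other way. Among synthesis and catabolism genes 5 of 18 were lower and 2 higher, with a median log2 ratio of -0.46. LOX2, the lipoxygenase of the first step in the chloroplast, had 2204 FPKM in Fcs and 5989 FPKM in Sei-0, AOS, the next enzyme, had 497 FPKM in Fcs and 1331 FPKM in Sei-0, and AOC1 and AOC2, which follow, had 337 and 841 FPKM in Fcs and 1021 and 2043 FPKM in Sei-0. The copies AOC3 and AOC4 lay within 2-fold, and reads that fit several AOC genes could have been split between them. JMT, which methylates jasmonate, was 2.6-fold lower. Higher instead were CYP94B3, which inactivates jasmonoyl-isoleucine (26.7 FPKM in Fcs, 9.82 in Sei-0), and KAT2, a thiolase of beta-oxidation (248 FPKM in Fcs, 107 in Sei-0).

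In jasmonate signalling and output 7 of 22 genes were lower and 1 higher, with a median log2 ratio of -0.82. The storage proteins VSP1 and VSP2 had 228 and 211 FPKM in Fcs and 1936 and 1079 FPKM in Sei-0. CORI3, named for its induction by coronatine, had 2013 FPKM in Fcs and 5579 FPKM in Sei-0. Of the JAZ repressors, which the pathway induces, JAZ9 and JAZ6 were called lower at 2.59- and 2.57-fold, and JAZ10 (228 FPKM in Fcs, 436 in Sei-0) and the transcription factor MYC2 (144 in Fcs, 283 in Sei-0) were just short of the margin. NAC019, a factor by which coronatine lowers SA, was the 1 higher gene, with 408 FPKM in Fcs and 200 FPKM in Sei-0, while RD26, from the same NAC clade, was lower (163 in Fcs, 333 in Sei-0), as was MYC4 (9.84 in Fcs, 22.0 in Sei-0).

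Ethylene synthesis and response genes had 4 of 24 members higher and 1 lower. PR4 and the basic chitinase HCHIB, outputs of the ethylene branch, had 232 and 14.4 FPKM in Fcs and 91.8 and 4.58 FPKM in Sei-0. ACS7, an enzyme of ethylene synthesis, had 3.28 FPKM in Fcs and 0.929 FPKM in Sei-0. The receptor ERS2 (2.22 in Fcs, 1.005 in Sei-0) and the 1 lower gene, the defensin PDF1.3 (1.77 in Fcs, 4.53 in Sei-0), lose their calls when 1 is added to each FPKM. The defensin PDF1.2 was within 2-fold, with 33.1 FPKM in Fcs and 64.9 FPKM in Sei-0.

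**Figure D2:**
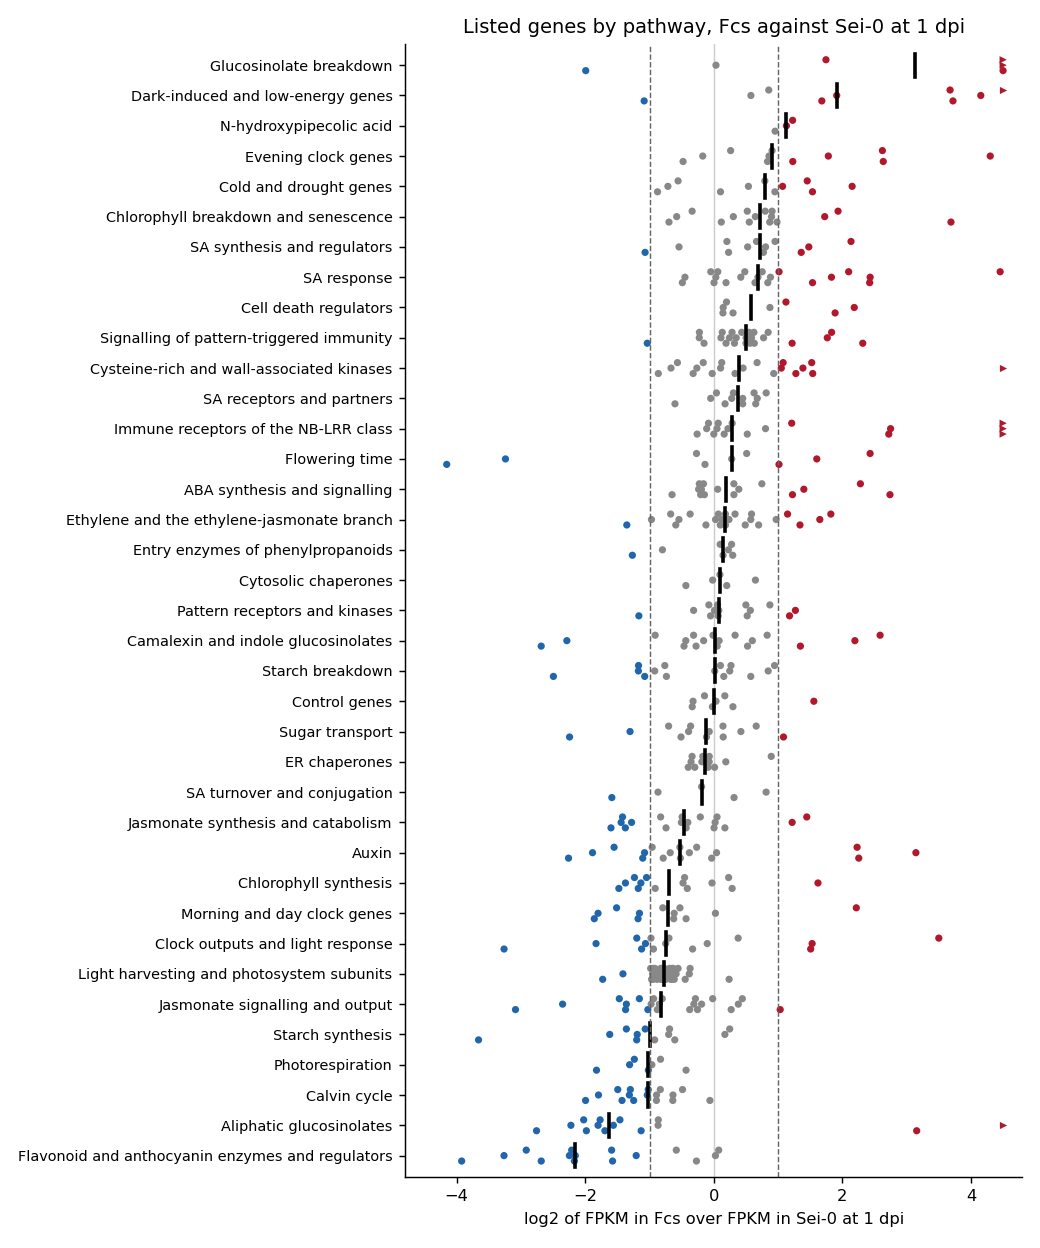
Each row is a gene list, each point a measured member, placed at the log2 of FPKM in Fcs over FPKM in Sei-0 at 1 dpi (arrowheads lie beyond 4.5); black bars are list medians and dashed lines mark 2-fold. Flavonoid genes have a median of -2.15 and glucosinolate breakdown 3.12, which become -1.40 and 0.89 when at least 1 FPKM is required in both groups; the whole set of measured genes has 0.018.

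Of the genes in these lists, 513 were measured, and 85 of them (16.6%) were higher and 93 (18.1%) lower in Fcs, beside 8.76% and 7.85% of all measured genes. The lists were picked with earlier results known, so nothing about defence or metabolism as a whole follows from this excess.

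Photosynthesis genes were lower in Fcs as a block, mostly by less than 2-fold. Of 34 subunits of the light-harvesting complexes and photosystems 33 had a ratio below 1, but 2 passed the margin, and the median log2 ratio was -0.77. NPQ4, the PsbS protein that dissipates excess light, had 320 FPKM in Fcs and 1061 FPKM in Sei-0, and LHCB2.2 had 386 FPKM in Fcs and 1028 FPKM in Sei-0. LHCB1.4 was the 1 member above 1. The Calvin cycle was lower in 9 of 16 genes and higher in none, with a median log2 ratio of -1.03: the aldolase FBA1 had 130 FPKM in Fcs and 518 FPKM in Sei-0, and Rubisco activase, RCA, had 1093 FPKM in Fcs and 2595 FPKM in Sei-0. The small subunit RBCS1A was at the margin, and its call is lost when both groups are scaled to the same sum of FPKM (log2 ratio -1.0). Photorespiration was lower in 4 of 7 genes, led by GLDP1, a subunit of glycine decarboxylase, with 150 FPKM in Fcs and 532 FPKM in Sei-0. Of 3 mesophyll markers, which belong to these lists as well, 2 were lower, and their summed level was 12871 FPKM in Fcs and 21914 FPKM in Sei-0; its part in these differences was not tested.

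Chlorophyll synthesis was lower in 6 of 14 genes, such as GUN4 and CHLH of the magnesium chelatase step, with 54.1 and 96.3 FPKM in Fcs and 151 and 250 FPKM in Sei-0. PORB, a protochlorophyllide reductase, was higher, with 127 FPKM in Fcs and 41.3 FPKM in Sei-0. Starch synthesis was lower in 6 of 12 genes and higher in none, led by GBSS1 and by the starch synthases SS3 (10.97 FPKM in Fcs, 33.7 in Sei-0) and SS2 (16.6 in Fcs, 42.5 in Sei-0). Starch breakdown was lower in 4 of 15 genes and higher in none, with a median log2 ratio of 0.014. The lowest was BAM9, an inactive amylase homologue, with 5.21 FPKM in Fcs and 29.4 FPKM in Sei-0. Of 13 sugar transporters, STP13, a hexose carrier that retrieves sugar from the apoplast during infection, was the 1 called higher (477 FPKM in Fcs, 225 in Sei-0), and the vacuolar carriers SWEET16 and SWEET17 were lower.

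Several genes that darkness and low sugar induce had far higher values in Fcs than in the other 3 groups. Each value is pooled, so whether 1 of the 3 Fcs libraries carries this excess cannot be told. Of 9 measured members of this list 6 were higher than in Sei-0 and 1 was lower, with a median log2 ratio of 1.91. ASN1, the asparagine synthetase of starved leaves, had 368 FPKM in Fcs and 33.7 FPKM in Fsc, against 28.9 FPKM in Sei-0 and 9.36 FPKM in Col-0. PRODH, which degrades proline, had 177 FPKM in Fcs and 6.62 FPKM in Fsc, against 13.4 FPKM in Sei-0 and 11.97 FPKM in Col-0. DIN10, of the raffinose synthase family, had 115 FPKM in Fcs and 5.58 FPKM in Fsc, against 6.49 FPKM in Sei-0 and 1.76 FPKM in Col-0. DIN2, a beta-glucosidase, and DIN4, a subunit of branched-chain keto acid dehydrogenase, had 23.8 and 14.5 FPKM in Fcs and 0.405 and 3.85 FPKM in Sei-0, and DRM1, a gene of dormant buds, had 57.3 FPKM in Fcs and 17.9 FPKM in Sei-0. The opposite direction was taken by BT2, a BTB protein that sugar represses, with 24.1 FPKM in Fcs and 51.2 FPKM in Sei-0.

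Senescence genes shared part of this picture, with 3 of 16 higher and none lower. SEN1, which darkness and senescence induce, had 155 FPKM in Fcs and 7.53 FPKM in Fsc, against 12.04 FPKM in Sei-0 and 7.43 FPKM in Col-0. SAG21, a late-embryogenesis-type protein of oxidative stress, had 2546 FPKM in Fcs and 770 FPKM in Sei-0. NAC6, known as ORE1, a main activator of leaf senescence, had 30.4 FPKM in Fcs and 7.97 FPKM in Sei-0. SAG12, the protease gene of late senescence, was listed at 0 in both groups.

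Clock genes differed by the time of day at which they peak. Morning genes were lower in 5 of 12 cases and higher in 1: CCA1 had 15.6 FPKM in Fcs and 6.73 FPKM in Fsc, against 54.3 FPKM in Sei-0 and 115 FPKM in Col-0, and LHY had 9.56 FPKM in Fcs and 4.87 FPKM in Fsc, against 34.7 FPKM in Sei-0 and 51.7 FPKM in Col-0. RVE8, LNK2 and RVE1 were 2.26-, 2.23- and 2.85-fold lower. PRR5, a pseudo-response regulator that peaks in the afternoon, was the 1 higher, with 23.6 FPKM in Fcs and 5.08 FPKM in Sei-0. Evening genes were higher in 5 of 11 cases and lower in none. FKF1, a blue-light receptor, had 8.47 FPKM in Fcs and 31.4 FPKM in Fsc, against 0.430 FPKM in Sei-0 and 0.209 FPKM in Col-0. ELF4 and LUX, subunits of the evening complex, had 11.7 and 7.76 FPKM in Fcs and 1.9 and 2.26 FPKM in Sei-0, and PRR3 and TOC1 had 7.96 and 27.5 FPKM in Fcs and 1.28 and 11.7 FPKM in Sei-0. In CCA1, LHY, PRR5 and these 5 evening genes Fcs lay between Fsc and Sei-0.

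Outputs of the clock and of light were called in both directions, with 3 of 15 higher and 5 lower. GRP7, an RNA-binding protein of the clock that also acts in immunity, had 872 FPKM in Fcs and 2342 FPKM in Fsc, against 77.2 FPKM in Sei-0 and 29.1 FPKM in Col-0, and its relative GRP8 was 2.84-fold higher in Fcs. ELIP1 and ELIP2, early light-induced proteins, had 6.75 and 1.09 FPKM in Fcs and 64.8 and 3.87 FPKM in Sei-0, and HY5, a factor of the light response, had 12.2 FPKM in Fcs and 26.6 FPKM in Sei-0. Whether leaves of the lines were collected at the same time of day is not given in the sources used here. The clock genes differed in the same comparison as the photosynthesis, starch and flavonoid lists, and their part in those differences was not tested.

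**Figure D3:**
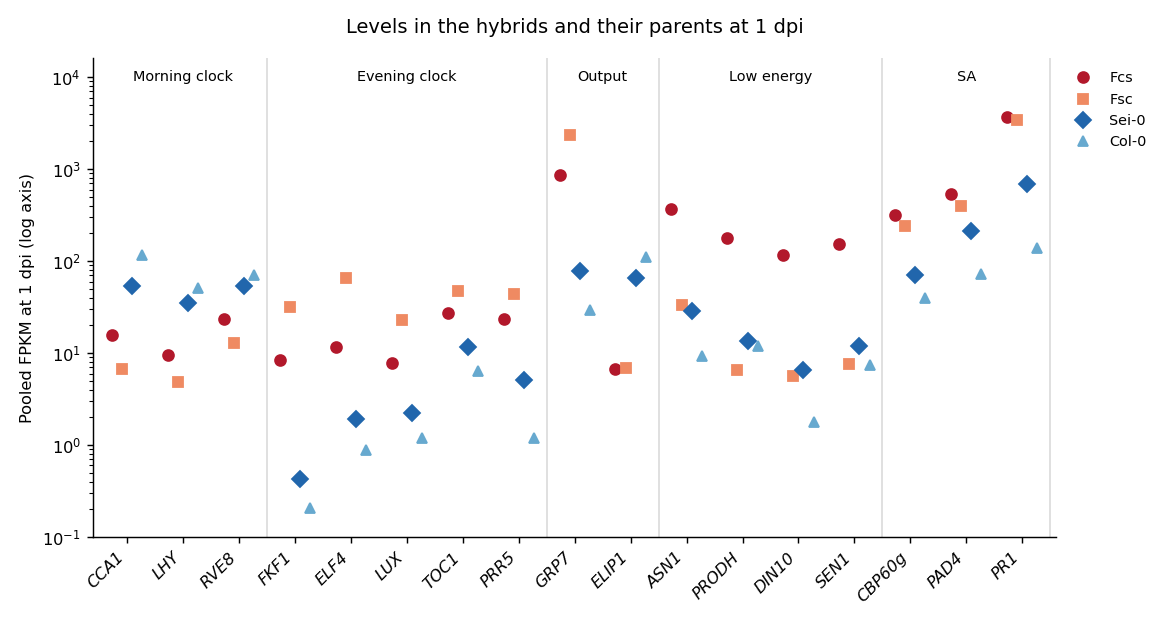
Pooled FPKM at 1 dpi (log axis) of named genes in Fcs, Fsc, Sei-0 and Col-0, with 1 point per group and no error bars because each is a single pooled value. PRR5 of the morning and day list is drawn with the evening genes, and SEN1 with the low-energy genes. In the evening genes Fcs lies between Fsc and the parents, whereas in ASN1, PRODH, DIN10 and SEN1 Fcs lies above the other 3 groups, such as ASN1 with 368 FPKM in Fcs against 28.9 FPKM in Sei-0.

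Promoter sequences of this clock group are shown because its members differed together and because the evening element is known as the sequence through which CCA1 and LHY act. Each run holds the 250 bases before the annotated start of the gene, from the Col-0 reference (TAIR10.1, RefSeq), 5′ to 3′ on the strand of the gene; the Sei-0 sequence was not read. FKF1 is chr1:25508389-25508638 (plus strand), LUX is chr3:17182792-17183041 (plus strand), TOC1 is chr5:24674713-24674962 (plus strand) and GRP7 is chr2:9266558-9266807 (minus strand). CCA1, a morning gene, is chr2:19245341-19245590 (plus strand), and TT4, a flavonoid gene, is chr5:4488226-4488475 (plus strand). The other genes of these lists are not printed, among them ELF4 and PRR3, and their motifs can differ from those shown. Capitals mark the evening element (AAAATATCT), the G-box (CACGTG) and the W-box (TTGACC or TTGACT), on either strand; the CCA1 binding site (AAAAATCT) was also searched and is in none of these windows.
FKF1: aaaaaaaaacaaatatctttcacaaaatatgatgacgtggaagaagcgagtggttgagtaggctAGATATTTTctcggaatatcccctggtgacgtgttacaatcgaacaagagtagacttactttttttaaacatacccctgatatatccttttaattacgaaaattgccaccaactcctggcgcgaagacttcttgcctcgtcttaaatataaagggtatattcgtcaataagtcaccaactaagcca
LUX: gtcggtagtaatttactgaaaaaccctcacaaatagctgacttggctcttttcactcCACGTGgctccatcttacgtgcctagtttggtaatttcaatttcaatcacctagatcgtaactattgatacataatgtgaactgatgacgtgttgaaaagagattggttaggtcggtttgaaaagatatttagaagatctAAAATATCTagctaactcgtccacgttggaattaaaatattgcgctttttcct
TOC1: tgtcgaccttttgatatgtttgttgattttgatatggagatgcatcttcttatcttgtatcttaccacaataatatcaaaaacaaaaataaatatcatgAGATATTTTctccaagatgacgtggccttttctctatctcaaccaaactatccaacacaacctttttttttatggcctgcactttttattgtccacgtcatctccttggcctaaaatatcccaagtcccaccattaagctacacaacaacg
GRP7: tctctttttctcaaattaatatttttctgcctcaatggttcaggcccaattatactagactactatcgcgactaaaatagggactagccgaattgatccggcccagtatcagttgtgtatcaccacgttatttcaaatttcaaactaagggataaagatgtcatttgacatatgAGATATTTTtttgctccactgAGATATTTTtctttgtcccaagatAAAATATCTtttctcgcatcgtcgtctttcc
CCA1: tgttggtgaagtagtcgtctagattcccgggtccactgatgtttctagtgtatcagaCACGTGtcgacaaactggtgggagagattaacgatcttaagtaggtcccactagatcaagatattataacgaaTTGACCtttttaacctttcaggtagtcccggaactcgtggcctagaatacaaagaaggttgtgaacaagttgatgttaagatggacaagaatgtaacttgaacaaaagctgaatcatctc
TT4: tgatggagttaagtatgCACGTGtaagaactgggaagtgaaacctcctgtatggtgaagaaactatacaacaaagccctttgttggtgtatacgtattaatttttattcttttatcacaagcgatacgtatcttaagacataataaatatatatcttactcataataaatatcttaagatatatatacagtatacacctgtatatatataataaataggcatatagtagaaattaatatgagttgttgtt

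The evening element stands 186 bases before the start in FKF1, 53 in LUX and 151 in TOC1, and 3 copies stand 76, 55 and 31 bases before the start in GRP7. LUX also holds a G-box, CCA1 holds a G-box and a W-box, and TT4 holds a G-box. Of 17801 measured genes with such a window, 2.61% hold an evening element, and among the genes called the share was 4.36% of those higher and 1.8% of those lower in Fcs. Of the 11 evening genes 4 hold it (FKF1, LUX, TOC1 and BOA). BOA was not called, and ELF4 and PRR3, which were called higher, do not hold it. It is also in 2 of 12 morning genes (RVE7 and PRR5) and 2 of 15 flavonoid genes (FLS1 and MYBL2). Of 15 clock and light outputs 3 hold it (GRP7, GRP8 and COL2), and COL2 was called lower. The G-box is in 7.56% of all windows, in 5.97% of those of higher genes and in 11.6% of those of lower genes. It is in 6 of 12 morning genes, 2 of 11 evening genes and 5 of 15 flavonoid genes. The W-box, the site of WRKY factors, is in 28.5% of all windows, 34.0% of those of higher genes and 23.9% of those of lower genes. The CCA1 binding site is in 6.8%, 6.93% and 7.11%. A match says only that these letters are in the window, and 5898 of the windows meet another gene.

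Flavonoid and anthocyanin genes had a median log2 ratio of -2.15, with 11 of 15 measured members lower and none higher. Of the early enzymes, TT4 had 14.2 FPKM in Fcs and 36.1 FPKM in Fsc, against 215 FPKM in Sei-0 and 297 FPKM in Col-0, and F3H had 4.67 FPKM in Fcs and 7.63 FPKM in Fsc, against 20.9955 FPKM in Sei-0 and 113 FPKM in Col-0. Of the late steps, UF3GT had 0.511 FPKM in Fcs and 4.91 FPKM in Sei-0, and TT19, a glutathione transferase needed for anthocyanin transport, had 3.76 FPKM in Fcs and 16.8 FPKM in Sei-0. The activator PAP1 had 24.1 FPKM in Fcs and 55.7 FPKM in Sei-0, whereas its relative PAP2 and the scaffold TTG1 were near equal. Several of these genes are weakly expressed: with 1 added to each FPKM the median became -1.21, above the -1.52 of the aliphatic glucosinolate genes, and DFR was no longer called. The general phenylpropanoid enzymes before this branch were mostly alike, with 1 of 7 lower (PAL1, with 72.5 FPKM in Fcs and 175 FPKM in Sei-0).

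Aliphatic glucosinolates, sulphur compounds made from methionine, were lower in 10 of 14 measured genes and higher in 2, with a median log2 ratio of -1.63. MAM3, an enzyme of chain elongation, had 7.95 FPKM in Fcs and 53.8 FPKM in Sei-0, BCAT4, which starts elongation, had 31.9 FPKM in Fcs and 149 FPKM in Sei-0, and CYP83A1 of the core pathway had 59.6 FPKM in Fcs and 176 FPKM in Sei-0. The 2 higher genes were near 0 in Sei-0. MYB29, an activator of the pathway, had 2.62 FPKM in Fcs, 0.0113 FPKM in Sei-0 and 43.9 FPKM in Col-0. AOP2, which makes alkenyl side chains, had 1.26 FPKM in Fcs, 0.142 FPKM in Sei-0 and 44.8 FPKM in Col-0, a call lost when 1 is added to each FPKM (log2 ratio 0.99). Its neighbour AOP3 showed the converse, with 12.6 FPKM in Fcs, 42.8 FPKM in Sei-0 and 0.386 FPKM in Col-0.

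Genes of glucosinolate breakdown differed by large ratios, with 4 of 6 higher and 1 lower. TGG2, a myrosinase, had 50.5 FPKM in Fcs and 48.0 FPKM in Fsc, against 0.965 FPKM in Sei-0 and 193 FPKM in Col-0. ESM1, which favours isothiocyanates over nitriles, had 39.4 FPKM in Fcs and 62.0 FPKM in Fsc, against 1.31 FPKM in Sei-0 and 167 FPKM in Col-0. ESP, the epithiospecifier protein, had 14.7 FPKM in Fcs and 544 FPKM in Fsc, against 0.652 FPKM in Sei-0 and 76.7 FPKM in Col-0, so the hybrids were far apart. NSP5 was higher and NSP1 lower among the nitrile specifiers. The median log2 ratio of this list was 3.12, and 0.89 when at least 1 FPKM was required in both groups, which removes the genes near 0 in Sei-0.

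Of 18 camalexin and indole glucosinolate genes 3 were higher and 2 lower, and the median log2 ratio was 0.02. MYB122 and MYB51, activators of indole glucosinolates, had 22.3 and 76.7 FPKM in Fcs and 3.72 and 30.2 FPKM in Sei-0, while MYB34, from the same clade, had 5.56 FPKM in Fcs and 35.8 FPKM in Sei-0. CYP71A12, of indole carbonyl nitrile and camalexin synthesis, was 4.58-fold higher, and PAD3, the last enzyme of camalexin synthesis, had 486 FPKM in Fcs and 387 FPKM in Sei-0. CYP79B3, which makes indole-3-acetaldoxime, was 4.88-fold lower, though its copy CYP79B2 was within 2-fold.

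Abscisic acid genes were higher in 4 of 16 cases and lower in none. Their ratios were above 1 in 9 genes and below 1 in 7, with a median log2 ratio of 0.19. HAI1, a phosphatase that pathogens exploit through this hormone, had 48.9 FPKM in Fcs and 10.07 FPKM in Sei-0, and NCED5, of abscisic acid synthesis, had 5.89 FPKM in Fcs and 0.881 FPKM in Sei-0. The remaining 2, CYP707A1 and CYP707A3, which break the hormone down, are weak and lose their calls when 1 is added to each FPKM. Of 11 cold and drought genes 4 were higher, none was lower and 7 lay between, and 3 of the 11 had a ratio below 1. The higher ones were CBF1, CBF2, CBF3 and COR47, such as CBF3 with 7.01 FPKM in Fcs and 2.56 FPKM in Sei-0. The summed level of the list was 1051 FPKM in Fcs and 1084 FPKM in Sei-0.

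Of 17 auxin genes 3 were higher, 5 lower and 9 between, with a median log2 ratio of -0.53. The conjugating enzymes GH3.2, GH3.3 and GH3.6 had 9.41, 7.51 and 29.2 FPKM in Fcs and 1.07, 1.6 and 6.13 FPKM in Sei-0. The repressors IAA3 and IAA17 had 8.24 and 23.4 FPKM in Fcs and 39.5 and 86.5 FPKM in Sei-0, and PIN3, an efflux carrier, was 2.15-fold lower. Of the chaperones, none of 5 in the cytosol and none of 12 in the endoplasmic reticulum passed 2-fold. Of 9 measured flowering-time genes 3 were higher and 2 lower, with a median log2 ratio of 0.28. The lower ones were FLC and MAF5. FLC, the floral repressor, had 2.45 FPKM in Fcs and 1.69 FPKM in Fsc, against 23.2 FPKM in Sei-0 and 9.3 FPKM in Col-0. MAF5, from the same gene family, had 0.986 FPKM in Fcs and 17.6 FPKM in Sei-0. Among the higher were MAF2, also of that family, and FRI, with log2 ratios of 1.01 and 1.6. Both lose their calls when 1 is added to each FPKM.

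Values of the other parent and of the reciprocal hybrid place Fcs in its pedigree. These comparisons share the Fcs or Sei-0 libraries, so they are given side by side only. By the same margin 7.97% of 17929 measured genes were higher and 6.99% lower in Fsc than in Sei-0, and 11.5% of 18093 were higher and 9.12% lower in Col-0 than in Sei-0. Of the 1566 genes higher than in Sei-0, 993 (63.4%) were also at least 1.5-fold above Col-0, 296 (18.9%) were within 1.5-fold of Col-0 and 277 (17.7%) were at least 1.5-fold below it. Of the 1402 lower genes, 1075 (76.7%) were also at least 1.5-fold below Col-0, 139 were within 1.5-fold of it, 170 were at least 1.5-fold above it and 18 were listed at 0 in Fcs and Col-0. Of the 14899 genes called neither way, 3135 were at least 1.5-fold above Col-0 and 3165 at least 1.5-fold below it. Against Fsc, 303 of the higher genes were at least 2-fold above Fsc and 42 at least 2-fold below it. Of the lower genes, 146 were at least 2-fold below Fsc and 26 at least 2-fold above it. Among the genes called neither way, 198 were at least 2-fold above Fsc and 79 at least 2-fold below it. The calls used the same Fcs values, so these counts are not independent of the calls.

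The label of Fcs as a cross was checked with genes measured mainly in 1 parent. At 1 dpi 146 genes had at least 5 FPKM in Col-0 and under 0.5 FPKM in Sei-0, and 127 of them reached 1 FPKM in Fcs, where their level had a median of 0.826 times the mean of the parents, with quartiles of 0.443 and 1.25. Of 82 genes with the converse pattern 70 reached 1 FPKM in Fcs, with a median of 0.867. Transcripts measured mainly in either parent were thus present in Fcs.

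**Figure D4:**
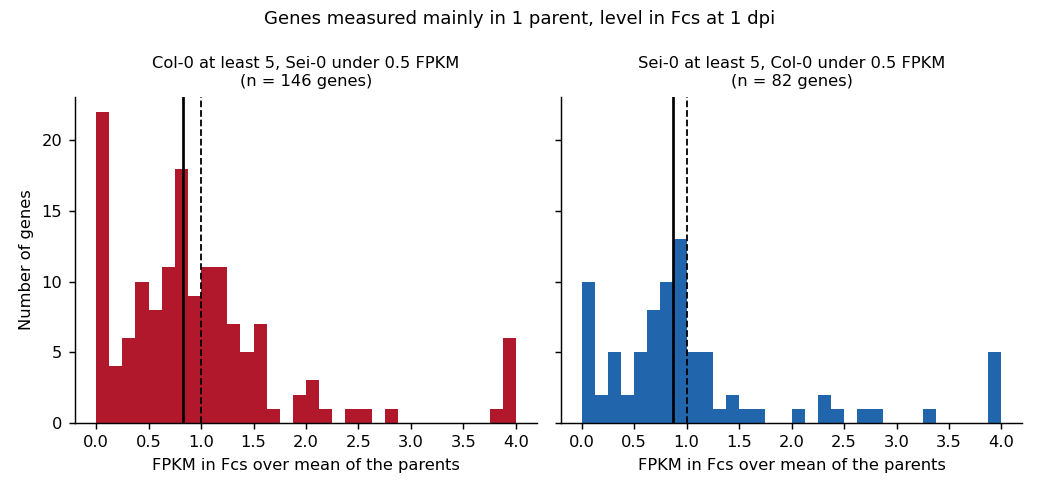
Number of genes by their FPKM in Fcs over the mean of the parents at 1 dpi, for 146 genes measured mainly in Col-0 (left) and 82 measured mainly in Sei-0 (right); dashed lines mark 1, solid lines the medians of 0.826 and 0.867, and the last bar also holds all larger values. Most genes of both sets lie between 0.5 and 2 times the mean of the parents, and the tallest bar of the left panel is the one nearest 0.

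Among the higher genes, 61 had at least 5 FPKM in Fcs and under 0.05 FPKM in Sei-0, and 29 of them span fewer than 300 bases. The converse held for 12 genes, all under 300 bases. The 6 highest on each side are named only by their identifiers, such as AT5G60285 with 867 FPKM in Fcs, 0 in Sei-0 and 724 in Col-0, whose span is 81 bases, and AT5G40981 with 0 FPKM in Fcs and 129 in Sei-0, whose span is 96 bases. AT5G40981 had the opposite values at 2 dpi, with 27.8 FPKM in Fcs and 0 in Sei-0. Of 214 measured genes with spans under 300 bases 36.4% were called higher and 23.8% lower, against 8.43% and 7.65% of the longer ones. AT2G43138 overlaps another gene and was listed at 326 FPKM in Fcs at 1 dpi, at 0 in the other 3 groups that day and at 0 in Fcs at 2 and 3 dpi.

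The libraries of 2 and 3 dpi are separate from those of 1 dpi, in both lines. At 2 dpi 6.88% of 17857 measured genes were higher in Fcs than in Sei-0 and 3.68% were lower, and at 3 dpi 6.05% of 17846 were higher and 5.89% lower. Of the genes higher at 1 dpi that were measured again, 736 of 1444 (51.0%) were also higher at 2 dpi and 436 of 1369 (31.8%) at 3 dpi, where 192 were lower. Of the genes lower at 1 dpi, 396 of 1201 were lower at 2 dpi and 257 of 1217 at 3 dpi. With at least 1 FPKM in both groups on each day, 361 genes were higher at 1 and 2 dpi and 171 at 1 and 3 dpi, and 288 and 184 were lower. All 3 days had 385 genes higher and 203 lower. Across genes, the log2 ratios of 1 and 2 dpi had a Pearson correlation of 0.748 and a Spearman correlation of 0.529 (n = 17138 genes), and those of 1 and 3 dpi 0.452 and 0.104 (n = 17026); genes are not independent replicates.

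Named genes differed in how they kept their ratio. HR4 had 502 FPKM in Fcs and 7.01 FPKM in Sei-0 at 2 dpi, and 170 FPKM in Fcs and 3.72 FPKM in Sei-0 at 3 dpi. PR1 had 8688 FPKM in Fcs and 3625 FPKM in Sei-0 at 2 dpi, and 1542 FPKM in Fcs and 693 FPKM in Sei-0 at 3 dpi, so it was past 2-fold on every day. ICS1 had 143 FPKM in Fcs and 146 FPKM in Sei-0 at 2 dpi, and 34.1 FPKM in Fcs and 56.6 FPKM in Sei-0 at 3 dpi. FMO1 had 22.0 FPKM in Fcs and 64.6 FPKM in Sei-0 at 3 dpi, which is the opposite of 1 dpi. ASN1 had 34.1 FPKM in Fcs and 43.2 FPKM in Sei-0 at 2 dpi, and PRODH had 19.4 FPKM in Fcs and 23.7 FPKM in Sei-0, so the excess of 1 dpi was not seen a day later. GRP7 had 5191 FPKM in Fcs and 1877 FPKM in Sei-0 at 2 dpi, and 5206 FPKM in Fcs and 1466 FPKM in Sei-0 at 3 dpi.

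List medians showed the same division. The evening genes had median log2 ratios of 0.91, 1.09 and 1.01 at 1, 2 and 3 dpi, the flavonoid genes -2.15, -1.03 and -1.46, and jasmonate signalling and output -0.82, -0.75 and -0.99. The low-energy genes had 1.91, 0.19 and -0.05, and the aliphatic glucosinolate genes -1.63, -0.038 and -0.025. Light harvesting had -0.77, -0.06 and 0.49 and the Calvin cycle -1.03, 0.1 and 0.45, so both stood below 0 at 1 dpi and above 0 at 3 dpi. SA response genes had 0.69, 0.011 and -0.42, and senescence genes 0.72, 0.057 and -0.96.

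**Figure D5:**
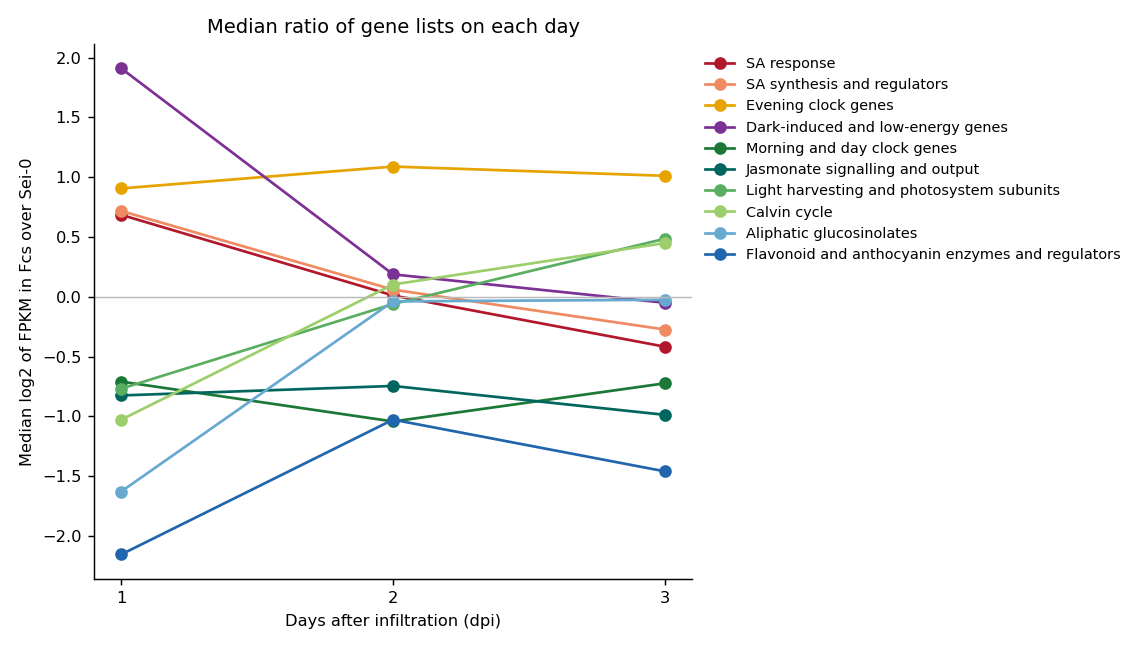
Median log2 of FPKM in Fcs over FPKM in Sei-0 for 10 gene lists at 1, 2 and 3 dpi; each point is a median over measured list members and lines join the days of 1 list. The evening genes stay near 1, the low-energy genes have 1.91 at 1 dpi and 0.19 at 2 dpi, and light harvesting has -0.77 at 1 dpi and 0.49 at 3 dpi.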

How the data were processed

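Leaf mRNA was sequenced from 36 libraries, 3 in each of 12 groups. By the study's methods, adapters and poor reads were removed, TopHat placed the rest on TAIR10 (Bowtie is the tool in the sample labels), and the Cufflinks package, ending in Cuffdiff with a Poisson fragment distribution, estimated expression. Tool versions are not given in the sources used here. The authors deposited 3 tables, 1 per day, with 1 pooled FPKM value per group for each of 33557 genes in 6 comparisons. FPKM is already scaled to depth and length, and the tables hold no read counts, so no counting interval is given; library depths stated by the study were not used here. The tables also hold the authors' fold changes, test statistics and p- and q-values, which were not used. Mapping to Col-0 can lower the values of diverged Sei-0 alleles, and FPKM of short genes is unstable. The library protocol does not mark strand, so reads of overlapping genes cannot be told apart; this touches 3141 measured genes, among them EDS5, NPR1, RLP23, RLP34, MPK6, ADR1-L1, RPS2, BON1, HCHIB, DIN4, TT4, F3H, BCAT4 and MIPS2. How reads that fit several near-identical copies (RBCS, LHCB, AOC, PDF1.2, MAM and AOP genes) were assigned is not given in the sources used here.

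Ratios of FPKM in Fcs over Sei-0 were computed without a pseudocount for genes with at least 1 FPKM in either group. A gene at 0 in 1 group counts as called, with no fold. Tables were normalized separately, so only ratios within a day are compared. Symbols came from TAIR10.1, which matched 32810 identifiers. Promoter windows were read from its genome, since no promoter table was given. The members and the 37 gene lists were chosen with earlier results of these data known. Named genes are the 12 highest and 12 lowest ratios (at least 10 FPKM in the higher and 1 in the lower group), up to 6 called members of each list and up to 3 against its majority, the genes the study names, the 6 most abundant near-0 genes each way, and the margins; further genes were named after their values were seen. Alternatives were pseudocounts of 1 and 0.1, other FPKM minimums, folds of 1.5 and 4, 3 scalings and, chosen after seeing the data, leaving out spans under 300 bases. Calling was tested on simulated data, which gives no error rate for the calls on these samples. Scripts ran under Python 3.11.15 (pandas 2.3.3 and NumPy 2.4.6), and Matplotlib 3.10.9 drew the figures.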

Additional observations from a re-analysis of the deposited data

How the results depend on the processing

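No paired analysis was possible because each group has 1 pooled value, and for the same reason no replicate could be left out. Single ratios were recomputed for 200 genes (those called or named by the study) with 1 added to each FPKM and under the 3 scalings. None of these changed direction, but these settings could hardly have changed it. Adding 1 to both values cannot turn a ratio from above 1 to below 1. The 3 scalings moved the median log2 ratio of measured genes only from 0.018 to 0.0018, 0.043 and 0.052. Other named genes, such as those near equality, were not run. Of the list medians 6 changed sign under 1 of the 11 alternatives: flowering time (-0.14 with at least 5 FPKM in either group), abscisic acid (-0.044 with at least 1 FPKM in both), SA turnover (0.062) and guard-cell markers (-0.26) with no filter, and starch breakdown (-0.0023) and control genes (-0.011) with the median set to 0. Scaling to the median, to the sum of FPKM or to the sum without the 20 most abundant genes, a pseudocount of 0.1 and leaving out short spans left each of the 10 counts that follow within 1.5 times. Their order is genes higher and lower at 1 dpi; listed genes higher and lower; genes higher and lower at 1 and 2 dpi; genes higher and lower at 1 and 3 dpi; and genes higher and at least 1.5-fold above Col-0, and lower and at least 1.5-fold below it. In the report these are 1566 and 1402, 85 and 93, 736 and 396, 436 and 257, and 993 and 1075. At 1.5-fold they were 2753 and 2933, 133 and 168, 1320 and 1012, 821 and 717, and 1688 and 2099. At 4-fold they were 622 and 270, 37 and 22, 299 and 60, 225 and 25, and 334 and 197, and 69.7% of the called genes were higher, beside 52.8% in the report. With no filter they were 3541 and 2863, 91 and 100, 1599 and 981, 1241 and 686, and 2127 and 1688. With at least 5 FPKM in either group they were 1008 and 963, 71 and 84, 403 and 244, 204 and 164, and 719 and 784. With at least 1 FPKM in both groups they were 1012 and 1087, 67 and 86, 361 and 288, 171 and 184, and 749 and 868. With 1 added to each FPKM they were 1187 and 961, 77 and 87, 548 and 246, 324 and 163, and 774 and 741. The added 1 moves weak genes most. FKF1 then had a log2 ratio of 2.73 and CRK4 5.2, and ICS2, FLS2, DFR, AOP2, FRI, MAF2 and 8 other named genes were no longer past 2-fold. RBCS1A and SHM1 lost their calls with equal sums, with or without the 20 most abundant genes (with them, log2 ratios of -0.998 and -0.996), RD26 with equal sums without those genes (-0.993), and NUDT6 and MAF2 with the median set to 0 (0.998 and 0.997).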

Other observations

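The gene families and neighbouring genes that follow were chosen after their values were seen and are given as values only. Beside 8.76% of all measured genes higher and 7.85% lower, the WRKY transcription factors had 12 of 52 measured members higher in Fcs and none lower, with a median log2 ratio of 0.56. The NAC factors had 9 of 37 higher and 1 lower, with a median of 0.54. The receptor-like proteins had 9 of 40 higher and 2 lower, with a median of only 0.074. Other families were called in both directions, with 7 higher and 7 lower of 23 tau-class glutathione transferases (GSTU), 7 and 6 of 20 beta-glucosidases (BGLU), 6 and 5 of 17 xyloglucan endotransglucosylases (XTH), and 19 and 22 of 116 cytochrome P450 genes named CYP.

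Some called genes were neighbours. On chromosome 3, between 5566086 and 5599224 (TAIR10), the 7 adjacent measured genes NSP1, NSP4, PBP1, JAL31, JAL33, JAL34 and JR1, most of which encode jacalin-related lectins or nitrile specifiers, were all lower in Fcs. On chromosome 4, between 7401109 and 7414927, the 4 adjacent genes AZI1, EARLI1, AT4G12490 and AT4G12500, a cluster of lipid-transfer-type proteins, were all higher. On chromosome 1, between 9126737 and 9143304, the 5 adjacent genes AT1G26380 to AT1G26420 were all higher. Copies within such clusters resemble each other, and how shared reads were assigned is not given in the sources used here.

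In 219 genes the ratio was past 2-fold higher at 1 dpi and within 1.5-fold at both 2 and 3 dpi, and 192 genes were at least 2-fold higher at 1 dpi and at least 2-fold lower at 3 dpi. The converse of the second pattern, lower at 1 dpi and higher at 3 dpi, was found in 51 genes.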
